A study of Mus musculus with 16 samples.

Results

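The transcription factor p53, encoded by Trp53, and 9 genes that it is known to control or that report on its activity were followed in mouse embryonic stem cells (ESCs) after RAM was suppressed by small interfering RNA (siRNA). The 10 members, Trp53, Mdm2, Cdkn1a, Ccng1, Bax, Bbc3, Pmaip1, Zmat3, Phlda3 and Trp53inp1, were chosen by symbol, were all found among the 46983 genes of the count table, and all 10 passed the filter on low counts, as did 12805 genes in total. RAM, encoded by Ramac, is the small activating subunit of RNMT, the enzyme that methylates the guanosine cap of mRNA. The cells were 46C ESCs of 129Ola origin, a single line in which GFP reports Sox1 expression, kept with leukaemia inhibitory factor. They were transfected for 48 hr with 70 pM of siRNA against RAM or of a non-targeting siRNA (control), as the labels give the amount, while the study's methods give another amount and transfection reagent. Cytoplasmic RNA before the gradient (input) and RNA pooled from gradient fractions 17 to 22 (polysome) were sequenced, giving 4 groups, input control, input RAM siRNA, polysome control and polysome RAM siRNA, each of 4 replicates and 16 libraries in all. The labels name no change in Trp53 and no agent that damages DNA in any group.

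p53 is held at a low level by the ubiquitin ligase Mdm2, which is itself a p53 target, so the pair form a feedback loop. When p53 is stabilised, it raises genes that halt the cell cycle, such as Cdkn1a (p21, an inhibitor of cyclin-dependent kinases), and genes of the BCL-2 family that open the mitochondrial outer membrane. In ESCs p53 is abundant and Cdkn1a is kept low, and the G1 arrest seen in other cells is weak.

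The libraries held between 16647523 and 20147833 counts. Ramac had between 197 and 206 counts in the control input libraries and between 46 and 58 in the RAM siRNA input libraries, and between 122 and 256 against between 5 and 45 in polysomes. Counts of mitochondrially encoded genes made up 5.95% to 6.66% of control input and 6.34% to 7.11% of RAM siRNA input libraries, higher after RAM siRNA in 4 of 4 same-numbered pairs, and 1.1% to 2.37% of polysome libraries. The 10 genes with most counts took 10.9% to 11.9% of control input and 12.4% to 13.3% of RAM siRNA input libraries. The summed level of 8 ESC markers ran from 2573 to 2701 CPM (counts as a share of their library, rescaled) in control input and from 2216 to 2324 in RAM siRNA input, and none of the 8 had a mean below 1 CPM in any group. Neural precursor markers summed to between 71.2 and 83.2 CPM in control input and between 77.2 and 91.4 after RAM siRNA, fibroblast markers to between 8.24 and 9.93 and between 9.79 and 12.5, and trophoblast markers to between 13.5 and 15.8 and between 10.8 and 14.4. Mesoderm and endoderm markers summed to between 3.79 and 5.43 CPM in control input and between 6.30 and 7.54 after RAM siRNA, with 4 of 5 below a mean of 1 CPM in control. The part of these differences in the results below was not tested. The 4 polysome libraries of a group were less alike than the input libraries. Between replicates 1 and 2 and replicates 3 and 4, 1260 of 9135 genes differed by over 2-fold in RAM siRNA polysomes and 316 in control polysomes, against 3 and 2 genes in the matching input groups. CPM values below were scaled by trimmed mean of M-values (TMM) over all 16 libraries and are a share of each library, so a change in the amount of RNA in polysomes as a whole would not appear in them.

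The levels of the members in control input spanned a wide range when compared per length, as CPM per kilobase of exon (RPKM). Ccng1 was the highest at 105 ± 8.01 RPKM (SD, n = 4), followed by Bax at 86.4 ± 1.66, Trp53inp1 at 47.6 ± 3.99 and Mdm2 at 36.9 ± 1.82. Phlda3 (30.0 ± 1.31) and Trp53 (26.6 ± 3.43) came next, with ranges that overlapped. Pmaip1 (9.41 ± 1.04) and Bbc3 (9.01 ± 0.762) also overlapped. Cdkn1a (4.15 ± 0.547) and Zmat3 (3.31 ± 0.588) were the lowest and overlapped in turn. In RAM siRNA input the order changed at the top, where Bax (92.4 ± 1.49 RPKM) lay above Ccng1 (78.1 ± 5.27). The pseudogene Trp53-ps had at most 1 count in any library. The exons of Cdkn1a share 273 bases with a gene model on the opposite strand and those of Bax 192 bases with one on the same strand, and neither of those models is in the count table.

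The start sites of these genes carry different numbers of p53 half-sites. The windows of Cdkn1a, Ccng1 and Phlda3 are shown so that the motif can be seen. Ccng1 and Phlda3 were both called lower in input after RAM siRNA, and Cdkn1a was not called. The 10-base p53 half-site consensus is palindromic, so each match reads on both strands. It was searched in RefSeq promoter windows of GRCm38.p6 that run from 250 bases before to 50 bases after each start. Of 32851 windows of this kind, 8.36% held a half-site, and 9.55% of 27025 genes had 1 or more windows that did. A window was listed for 7 of the 10 members and 5 of them, Bax, Mdm2, Ccng1, Trp53 and Cdkn1a, held one. The upstream one of 2 Cdkn1a windows held a pair of exact half-sites 12 bases apart. Of all windows, 24 (0.0731%) held an exact pair with a spacing of 13 bases or less. Only exact matches were counted and marked. In Cdkn1a the 10 bases directly after GAACATGTCT, tgacatgttc, differ from the consensus at the first base alone and are unmarked. Binding of p53 was not analysed here. Half-sites are in capitals, 5′ to 3′ on the strand of the gene.
Cdkn1a, plus strand, chr17:29090729-29091028: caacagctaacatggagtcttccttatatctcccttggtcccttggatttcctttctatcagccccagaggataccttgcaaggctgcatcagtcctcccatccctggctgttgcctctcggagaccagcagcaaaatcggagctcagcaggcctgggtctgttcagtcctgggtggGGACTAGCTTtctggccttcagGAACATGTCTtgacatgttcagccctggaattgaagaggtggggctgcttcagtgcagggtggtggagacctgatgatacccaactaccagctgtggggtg
Ccng1, minus strand, chr11:40755237-40755536: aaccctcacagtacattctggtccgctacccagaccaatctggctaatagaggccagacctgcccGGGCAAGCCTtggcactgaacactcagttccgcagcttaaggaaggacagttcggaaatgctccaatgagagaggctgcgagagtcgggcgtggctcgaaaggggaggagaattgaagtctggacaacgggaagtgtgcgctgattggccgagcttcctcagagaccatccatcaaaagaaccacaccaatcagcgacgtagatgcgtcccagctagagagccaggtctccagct
Phlda3, plus strand, chr1:135765835-135766134, with no half-site in the window: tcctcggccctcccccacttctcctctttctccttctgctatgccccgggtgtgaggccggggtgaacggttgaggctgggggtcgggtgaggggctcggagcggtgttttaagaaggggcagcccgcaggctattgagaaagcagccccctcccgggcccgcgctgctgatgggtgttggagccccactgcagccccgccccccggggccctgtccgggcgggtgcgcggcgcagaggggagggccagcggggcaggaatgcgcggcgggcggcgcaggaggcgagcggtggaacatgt
The matches were AGGCAAGCTT in Bax, GAACTTGCCT in Mdm2 and GGACTTGCCC in Trp53. Neither the 3 Bbc3 windows nor the second Cdkn1a window held a half-site. The Phlda3 window ends in gaacatgt, which matches the start of the consensus. A half-site cut by the edge of a window would not be found.

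In input, in the fit without a replicate term, 3 of the 10 members were lower after RAM siRNA and 0 were higher. The 3 that fell were Phlda3, a PH-domain protein that opposes Akt at the membrane, Ccng1, which encodes cyclin G1, a partner of the phosphatase PP2A, and Trp53inp1, which encodes a stress-induced protein that acts with p53 and in autophagy. Over all 12805 genes tested, 5.94% were lower and 6.95% higher by the same rule, an adjusted p below 0.05 (quasi-likelihood test of edgeR, Benjamini-Hochberg over all genes). The median log2 fold change of the members was -0.156, against 0.0007 over all genes, and 8 of 10 were below zero. In bulk RNA, fewer cells that express a gene and less of its RNA per cell cannot be told apart.

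Phlda3 measured 47.1, 49.2, 44.2 and 46.3 CPM in control replicates 1 to 4 and 29.8, 32, 29.5 and 32.8 CPM after RAM siRNA. Every RAM siRNA library was below every control library. The fall was by 0.59 on the log2 scale (SE 0.07, adjusted p = 0.000356 by edgeR). Ccng1 measured 386, 391, 370 and 329 CPM in control input and 283, 287, 279.9 and 247 CPM after RAM siRNA. Replicate 4 was the lowest in both groups, and the groups did not overlap. Ccng1 fell by 0.43 on the log2 scale (SE 0.08, adjusted p = 0.00598 by edgeR), and the fall within same-numbered pairs was between 0.40 and 0.45. Trp53inp1 measured 325, 323, 314 and 270.0 CPM in control input and 240.4, 248, 232 and 197 CPM after RAM siRNA. Again replicate 4 was lowest in both groups and the groups did not overlap. The share of all genes whose groups did not overlap was not counted, and 3591 of all 12805 genes had an unadjusted p below 0.05 in this fit. Trp53inp1 fell by 0.43 on the log2 scale (SE 0.09, adjusted p = 0.0111 by edgeR). These 3 calls held when any 1 input library was left out. They were lost with replicates 3 and 4 alone, an alternative chosen after seeing the data in which no gene of the 12805 passed, and in a fit that took its spread from all 16 libraries (adjusted p = 0.186 for Phlda3, 0.109 for Ccng1 and 0.169 for Trp53inp1 in edgeR).

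The Cdkn1a estimate had the opposite sign to those of the members that fell. It measured 14.8, 17.4, 13.8 and 12.9 CPM in control input and 16.7, 20.9, 19.7 and 17.5 CPM after RAM siRNA, a level supported by 231 to 370 counts per library. All 4 same-numbered pairs were higher after RAM siRNA, but the ranges of the groups overlapped. The log2 fold change was 0.34 (SE 0.11, adjusted p = 0.0657 by edgeR) and did not pass. With the replicate number as a block, Cdkn1a was higher (adjusted p = 0.00118), and it also passed with DESeq2 (adjusted p = 0.0468), without control replicate 2 (0.0382) and without RAM siRNA replicate 4 (0.0418).

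Trp53 measured 108, 105, 92.1 and 126 CPM in control input and 91.3, 92.0, 91.4 and 112 CPM after RAM siRNA. Replicate 4 was the highest in both groups, and the groups overlapped. Its log2 fold change was -0.16 (SE 0.10, adjusted p = 0.326 by edgeR), and -0.08 without control replicate 4. It was called lower with replicates 1 and 2 alone (log2 -0.22, adjusted p = 0.0235), an alternative added after seeing the data. Mdm2, which marks p53 for degradation, measured 195, 196, 181 and 178 CPM in control and 168, 179.6, 167 and 161 CPM after RAM siRNA, a log2 fold change of -0.15 (SE 0.07, adjusted p = 0.172 by edgeR). Each was lower in 4 of 4 same-numbered pairs. With the replicate block, both were called lower, Trp53 at an adjusted p of 0.0109 and Mdm2 at 0.0065. The block thus gave 5 members lower and 1 higher, beside 19% of all genes lower and 20.3% higher.

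None of the apoptosis genes passed in input. Bax, a pore-forming member of the BCL-2 family, measured 132, 138, 137 and 138 CPM in control and 143, 145, 147 and 148 CPM after RAM siRNA. The RAM siRNA libraries all lay above the control libraries (exact permutation p = 0.0286, two-sided, the smallest that 4 against 4 allows). That test leaves out the pairing of replicates. The log2 fold change was only 0.10 (SE 0.06), and the adjusted p was 0.335 in edgeR and 0.0715 with the block. Bbc3 (PUMA), a BH3-only activator of cell death, ranged from 17.8 to 21.2 CPM in control and from 15.6 to 19.5 CPM after RAM siRNA (adjusted p = 0.434). Pmaip1 (NOXA), another BH3-only gene, ranged from 22.3 to 29.1 and from 20.8 to 26.1 CPM (adjusted p = 0.44). Zmat3, an RNA-binding zinc finger protein induced by p53, ranged from 32.2 to 47.5 and from 30.4 to 35.9 CPM (adjusted p = 0.398). The groups of these last 3 genes overlapped, and none passed with the block.

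**Figure D1:**
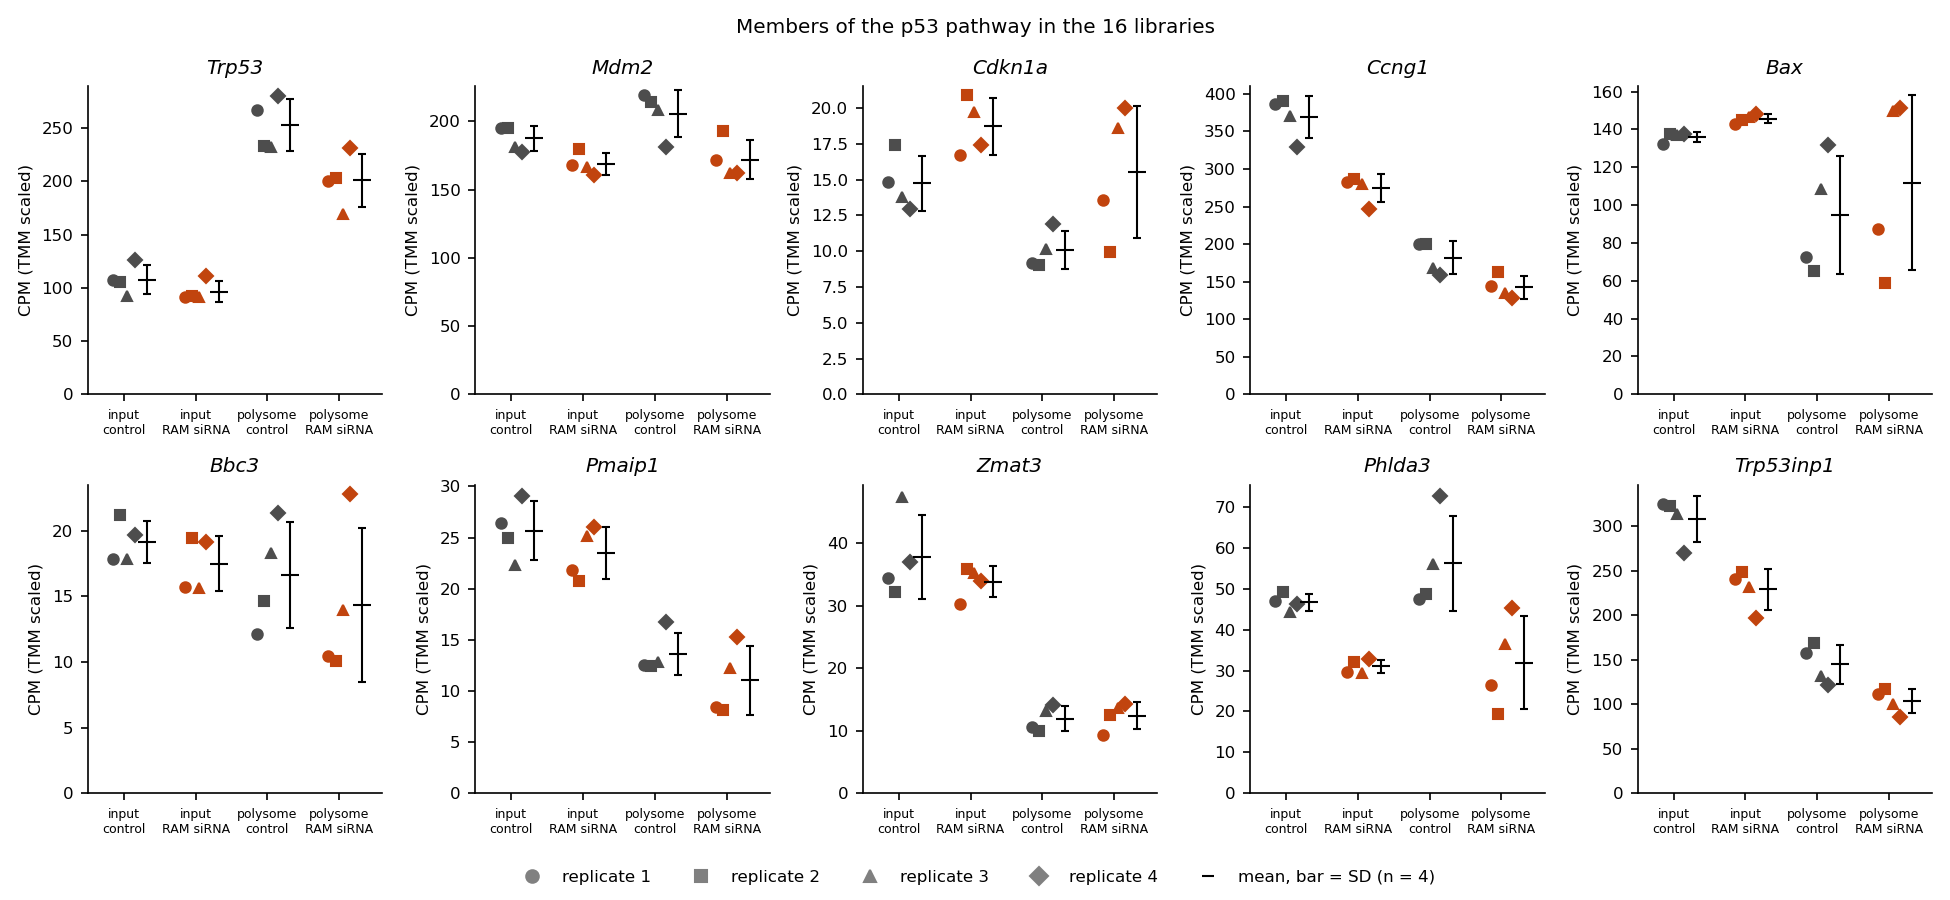
CPM of the 10 members (y axis, TMM-scaled over 16 libraries) by group (x axis), with 1 point per library, marker shape for the replicate number and a black bar for the mean and SD. Phlda3, Ccng1, Trp53inp1 and Bax separate control from RAM siRNA in input, though Bax was not called and the share of all genes that separate was not counted. Trp53 is higher in polysomes than in input, and Bax, Bbc3 and Cdkn1a are spread widely in polysomes.

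In polysomes, the members took the same direction as in input except Zmat3, but none passed without a replicate term. In edgeR 0 of 10 were called, 3 had an unadjusted p below 0.05 (Cdkn1a, Phlda3 and Trp53inp1), and DESeq2 and limma-voom also called 0. Over all genes tested, 0.0234% of genes were lower and 0% higher, and 1152 had an unadjusted p below 0.05. Input and polysome libraries came from the same cultures and are not independent.

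Phlda3 measured 47.4, 48.7, 56.1 and 72.7 CPM in control polysomes and 26.5, 19.4, 36.5 and 45.3 CPM after RAM siRNA. Replicates 3 and 4 were higher than replicates 1 and 2 in both groups. The groups came close, and they overlapped when the scaling was done within the polysome libraries. The log2 fold change was -0.76 (SE 0.28, adjusted p = 0.431 by edgeR), and with the block -0.81 (SE 0.13, adjusted p = 0.000712). Trp53inp1 measured 157, 169, 132 and 122 CPM in control polysomes and 112, 117, 100.5 and 85.7 CPM after RAM siRNA, and the groups did not overlap under either scaling. Its log2 fold change was -0.44 (SE 0.17, adjusted p = 0.451 by edgeR), with the block -0.43 (adjusted p = 0.0135). Cdkn1a measured 9.19, 9.04, 10.1 and 11.9 CPM in control polysomes and 13.6, 9.95, 18.6 and 20.0 CPM after RAM siRNA, with RAM siRNA replicate 2 within the control range. Its log2 fold change was 0.68 (SE 0.25, adjusted p = 0.425 by edgeR), with the block 0.64 (adjusted p = 0.00614). The block called 4.97% of all genes lower and 9.68% higher in polysomes, and among the members 2 lower and 1 higher.

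Trp53 measured 267, 233, 232 and 279.9 CPM in control polysomes and 201, 204, 169.8 and 231 CPM after RAM siRNA. The lowest control and the highest RAM siRNA library were nearly equal, and they crossed when the scaling was done within the polysome libraries. Its log2 fold change was -0.28 (SE 0.15, adjusted p = 0.653 by edgeR, and 0.0967 with the block). Ccng1, called lower in input, ranged from 159 to 200.3 CPM in control polysomes and from 128 to 163 CPM after RAM siRNA, a log2 fold change of -0.30 (SE 0.15, adjusted p = 0.619 by edgeR, and 0.0768 with the block). Mdm2, Bax, Bbc3, Pmaip1 and Zmat3 had log2 fold changes between -0.25 and 0.30 and adjusted p-values of 0.8 or more in edgeR, and none passed with the block.

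**Figure D2:**
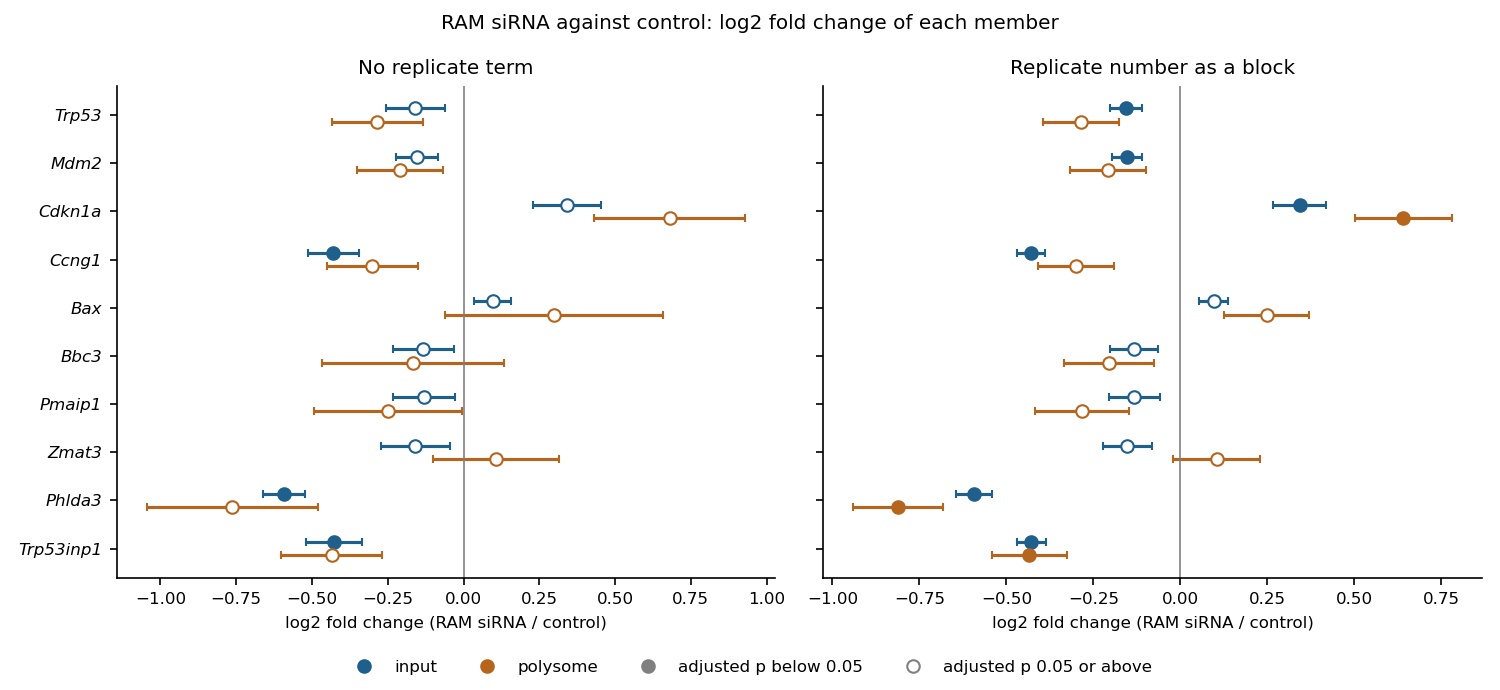
Log2 fold change of RAM siRNA against control for each member (x axis) in input (blue) and polysome (brown), with the standard error as a bar, without a replicate term on the left and with the replicate number as a block on the right. Filled points have an adjusted p below 0.05: 3 members in input on the left, and 6 in input and 3 in polysomes on the right.

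Whether the change in polysomes differed from that in input was tested as the interaction of siRNA and fraction over all 16 libraries. No member passed: 0 of 10 had an adjusted or an unadjusted p below 0.05 with edgeR, DESeq2 or limma-voom. Among all genes 0% were lower and 0% higher in edgeR, with 100 at an unadjusted p below 0.05, and with the block within each fraction 0.0156% were lower and 0% higher. The interaction estimates ran from -0.23 for Phlda3 (SE 0.28) to 0.28 for Cdkn1a (SE 0.26), and the SE was smallest for Mdm2 (0.16) and largest for Bax (0.36). That fit takes the libraries of a culture as independent. With the block within each fraction the SE was 0.12 for Bax and 0.14 for Phlda3 (log2 -0.27, unadjusted p = 0.0685 by edgeR). A block by culture called 0 of all genes lower and 0 higher.

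The members differed widely in their polysome level relative to input in control cells, a ratio that the study's methods take as polysome loading. The ratio compares a share of the polysome library with a share of the input library. It places genes relative to each other and does not give the part of a gene's RNA that is in polysomes. Trp53 was higher in polysomes than in input, by 2.29-fold (log2 1.19, SE 0.13, adjusted p = 1.25e-05 by edgeR), and it was the only member called higher. Its polysome-to-input ratio was 2.36 in control and 2.08 in RAM siRNA cultures. The 6 members called lower were Zmat3 (log2 -1.70, SE 0.17), Trp53inp1 (-1.13, SE 0.13), Ccng1 (-1.06, SE 0.12), Pmaip1 (-0.95, SE 0.14), Cdkn1a (-0.59, SE 0.15) and Bax (-0.56, SE 0.20). Mdm2 (0.09), Phlda3 (0.23) and Bbc3 (-0.24) did not pass. By the same rule 34.3% of all genes were lower and 33.1% higher, and 37.2% and 35.1% with the block, which changed no member's call. The values put the factor at the high end, at the 95th percentile of the log2 differences of all genes tested, and Zmat3 at the low end, at the 6.7th percentile.

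Several of these ratios depended on the replicate. For Bax the polysome-to-input ratio averaged 0.511 in control replicates 1 and 2 and 0.872 in control replicates 3 and 4, and 0.500 against 1.02 in the RAM siRNA cultures. Bbc3 (0.687 against 1.06 in control), Cdkn1a (0.568 against 0.823) and Phlda3 (0.998 against 1.41) differed in the same direction. Trp53 (2.35 against 2.37), Ccng1 (0.516 against 0.468) and Mdm2 (1.11 against 1.08) varied less. The call for Bax was lost (adjusted p between 0.052 and 0.0848) when any 1 control input library, or control polysome replicate 1 or 2, was left out, and with edgeR's own filter on low counts (0.0514). In fits of replicates 1 and 2 or 3 and 4 alone, which were added after seeing the data, the calls for Bax (log2 -0.20, adjusted p = 0.383) and Cdkn1a (log2 -0.28, adjusted p = 0.235) were lost with replicates 3 and 4 alone. Phlda3 was called higher with replicates 3 and 4 alone (log2 0.50, adjusted p = 0.0399) and with no filter on low counts (0.37, 0.0466). Bbc3 was called lower with replicates 1 and 2 alone (-0.60, 0.0096) and without control polysome replicate 4 (-0.39, 0.0413).

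**Figure D3:**
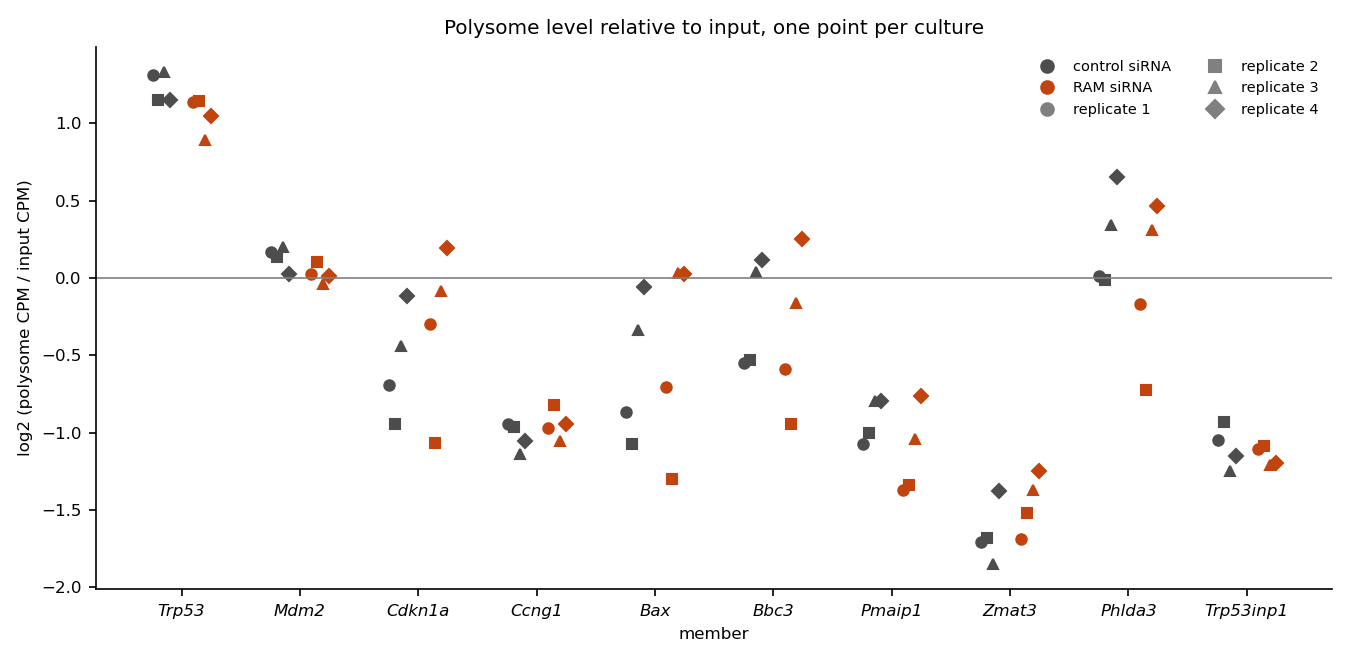
Log2 ratio of polysome to input CPM for each member (x axis), 1 point per culture, with control in grey, RAM siRNA in orange and marker shape for the replicate. Trp53 lies above zero in all 8 cultures and Zmat3, Ccng1, Trp53inp1 and Pmaip1 below zero in all 8, while Bax, Bbc3, Cdkn1a and Phlda3 are split by replicate.

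Among 89 tested genes of 6 related lists, 7 were lower and 3 higher in input, beside 5.94% of all genes lower and 6.95% higher. Of 27 further p53 targets, 25 were tested, and 2 were lower and 0 higher, with a median log2 fold change of -0.0297, against 0.0007 over all genes. They were Gadd45a, a stress protein that acts in growth arrest (64.0 ± 2.71 CPM in control, 44.5 ± 2.45 after RAM siRNA, SD, n = 4, log2 -0.53, adjusted p = 0.000535, edgeR), and Apaf1, the core of the apoptosome (59.3 ± 3.28 and 48.7 ± 1.76 CPM, log2 -0.29, adjusted p = 0.0154). None of 24 regulators of p53 passed in edgeR or limma-voom. In edgeR 2 had an unadjusted p below 0.05, beside 3591 of all 12805 genes. DESeq2 called 2 of the regulators lower, beside 911 lower and 1067 higher of all 12805 genes. With the block 8 regulators were lower and 1 higher. The lower ones with the smallest p were Prkdc, the catalytic subunit of a DNA repair kinase (log2 -0.26, adjusted p = 0.000133), and Cop1, a ubiquitin ligase that acts on p53 (log2 -0.25, adjusted p = 0.000342), and the higher one was Cdkn2a, which gives the Mdm2-binding protein ARF (log2 0.36, adjusted p = 0.0389). With the block, where 19% of all genes were lower and 20.3% higher, the further targets came to 6 lower and 2 higher, the BCL-2 genes to 1 lower and 2 higher, the p21 partners below to 7 lower and 3 higher and the mitotic genes to 8 lower and 0 higher. Of 10 tested BCL-2 genes, only Hrk, a BH3-only gene, passed without the block (13.9 ± 1.60 and 19.0 ± 2.34 CPM, log2 0.45, adjusted p = 0.0196, edgeR). Bid came close to the threshold (log2 -0.29, adjusted p = 0.0502, edgeR). DESeq2 called 1 gene of this list lower and 1 higher, beside 911 and 1067 of all 12805 genes.

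Among the 13 partners and relatives of p21, 3 were lower and 1 higher. Ccne1, cyclin E1, an activator of Cdk2, measured 319 ± 24.2 CPM in control input and 143 ± 20.0 CPM after RAM siRNA (log2 -1.16, adjusted p = 6.13e-05, edgeR). Ccnd3, cyclin D3, measured 210.2 ± 18.5 and 109 ± 3.51 CPM (log2 -0.95, adjusted p = 4.61e-05), and Ccna2, cyclin A2, was also lower (log2 -0.29, adjusted p = 0.0412). Ccnd1, cyclin D1, was higher (12.04 ± 3.56 and 19.7 ± 4.80 CPM, log2 0.71, adjusted p = 0.0334). Of 13 mitotic genes that p53 lowers through p21 and the DREAM complex, Ccnb2 (log2 -0.66, adjusted p = 0.000143) and Ccnb1 (log2 -0.31, adjusted p = 0.0118) were lower and 0 were higher in edgeR. DESeq2 called 5 of the 13 lower and 0 higher, beside 911 lower and 1067 higher of all 12805 genes. In edgeR 12 of 13 estimates were below zero, with a median of -0.185. Of the paralogs of members, Phlda2 was higher at 0.60 on the log2 scale (adjusted p = 0.0449, edgeR), opposite in sign to Phlda3, and 0 of 6 tested were lower. With limma-voom 0 of the 6 were lower and 0 higher. Trp63 and Trp73 did not reach the count filter. In polysomes 0 of the 89 genes passed in edgeR or limma-voom. In edgeR 11 had an unadjusted p below 0.05, beside 1152 of all 12805 genes. DESeq2 called 3 lower and 1 higher, beside 144 lower and 156 higher of all 12805 genes. With the block, 9 of the 89 were lower and 7 higher in polysomes, beside 4.97% and 9.68% of all genes. The smallest p-values among them were those of Ccne1 (log2 -1.31, adjusted p = 2.36e-05) and Ccnd3 (-1.003, 6.75e-05), which were lower, and of Ccnd1 (0.81, 0.000712) and Phlda2 (0.99, 0.00172), which were higher.

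**Figure D4:**
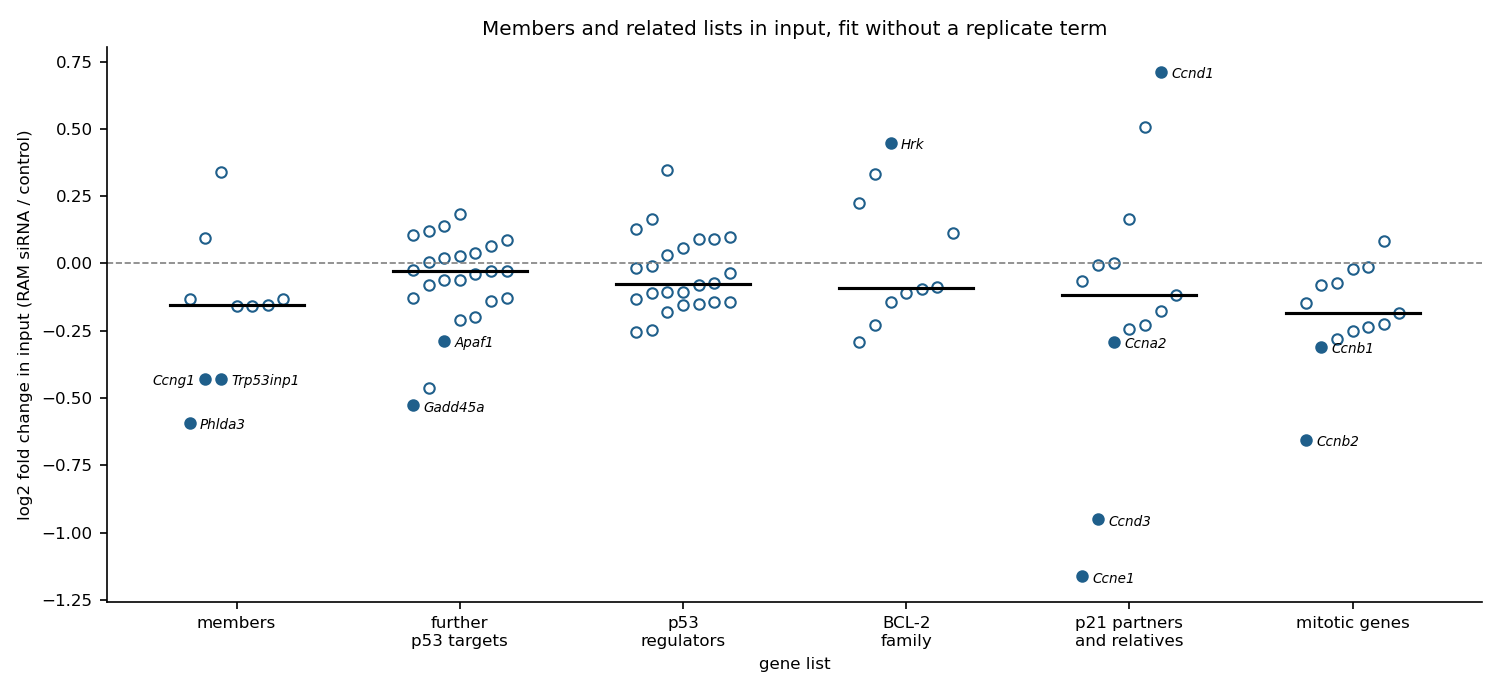
Log2 fold change in input (y axis) of every tested gene among the members and the related lists other than the paralogs. Filled, named points have an adjusted p below 0.05. A black line marks the median of the list and a dashed line the median of all genes. The members have a median of -0.156 and the mitotic genes of -0.185, while the further targets lie nearer zero.

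The 3′ UTRs of the members were read for a pair of 6-base words that an earlier look at these libraries had drawn from genes that changed in input. The words are therefore no independent evidence. ACTATC occurred in the 3′ UTR of 14.9% of 12060 tested genes with one, in 37.2% of those lower in input and in 8.5% of those higher, and TGCTCA in 37.3%, 35.2% and 47.4%. The 3′ UTR used was the longest of each gene in GENCODE M21, with a median length of 1155 bases over all genes and 1399 over the lower genes. Trp53inp1, with 4420 bases, held ACTATC in 2 places, Ccng1, with 2316 bases, held it in 1, and Phlda3, with 727 bases, held neither word. Pmaip1 held ACTATC in 1 place. TGCTCA occurred in 2 places in Cdkn1a, with 1334 bases, in 4 in Zmat3, with 6692 bases, and in 1 each in Ccng1, Mdm2 and Trp53inp1. Trp53, Bax and Bbc3 held neither word. One site each in Trp53inp1, Ccng1 and Cdkn1a is shown, with the word in capitals, extended where the next base is A, and their part in the changes was not tested.
Trp53inp1: gtgtttagacACTATCAcaaccagatt
Ccng1: gaattgaaatACTATCttcaatataa
Cdkn1a: ccaaagctggTGCTCAAtaaatacttc

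Across the 16 libraries, the pattern of Trp53 was most like that of Eif2s1 (Pearson r of log2 CPM 0.995), Serbp1 (0.994) and Tdp1 (0.994), and that of Cdkn1a was most like that of Mrps17 (0.927), 1600012H06Rik (0.919) and Pigp (0.918). The libraries share fractions and siRNA groups, so these values are a description.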

How the data were processed

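RNA from the input and polysome fractions was sequenced after ribosomal RNA removal with a stranded kit. Per the labels and the study's methods, the authors aligned reads with STAR 2.5.1b to mm10 and counted them per Ensembl gene with HTSeq, and the deposited values are raw counts. The annotation release and the strand setting are not given in the sources used here, and no column belonged to another sample. Genes that reached 1 CPM in 10 or more of the 16 libraries were tested with edgeR 4.0.16 (R 4.3.3) by the quasi-likelihood test with TMM scaling, Benjamini-Hochberg adjustment over 12805 genes and an adjusted p below 0.05, without a replicate term. limma 3.58.1, DESeq2 1.42.0, other scalings and filters and the replicate block were alternatives. The fits were also run on counts simulated without a replicate effect and with the same spread in both fractions. Those runs cannot weigh the fit with the block against the fit without it. Log2 values per library used a pseudocount of 0.5. A symbol was matched to 46488 of 46983 gene identifiers, and RPKM used GENCODE M21 union exon lengths. Named genes were the 10 members and, from the other lists, the called genes with the smallest p in each direction. Same-numbered replicates deviated together, with every correlation across 9135 genes at 0.233 or above, and the study's replicates were independent experiments. The numbers were therefore taken as pairs in the replicate block and in the counts of same-numbered pairs. The main fit left this pairing out, and its calls differ from those of the block. In input, the counts of genes called over the whole table lay nearer to the paper's counts with the block than without it. The p-values measure the spread between these samples. The members and lists were chosen with earlier results of these data known.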

Additional observations from a re-analysis of the deposited data

Results flagged for a closer look

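Of 40 groups of 4 libraries checked, 3 held a library far from the others, and chance flags about 1 in 20. Trp53 in RAM siRNA input replicate 4 was at 111.5 CPM, with the others between 91.32 and 92.02. Bax in control input replicate 1 was at 132.2 CPM, with the others between 137.0 and 137.7. Pmaip1 in control polysome replicate 4 was at 16.74 CPM, with the others between 12.43 and 12.83.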

How the results depend on the processing

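Over the alternatives, 74 counts of members called stayed within 1.5 times the main count and 5 did not. The 3 input calls became 6 with the replicate block, 0 with replicates 3 and 4 only and 0 in a fit of all 16 libraries. The 0 polysome calls became 3 with the replicate block and 1 (Phlda3) in the fit of 16 libraries. With the block no interaction call and no polysome-against-input call of a member changed. Over all genes, the block raised the input calls from 761 lower and 890 higher to 2433 and 2595, and the polysome calls from 3 and 0 to 636 and 1239. DESeq2 called 300 genes in polysomes. Of the single member values, 747 kept their direction and side of the threshold, 15 passed newly, 15 no longer passed and 13 changed sign without being called. Those were the interaction of Trp53inp1 (0.014 with no filter on low counts, and between -0.136 and 0.0526 without 1 library), of Bbc3 (between -0.396 and 0.0596 without 1 library) and of Bax (between -0.034 and 0.356 without 1 library), and polysome against input for Phlda3 (-0.0638 with replicates 1 and 2 only) and Bbc3 (0.0765 with replicates 3 and 4 only). The cause was not tested. Depth limits Pmaip1 most, with as few as 140 counts in a library.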
